A study of Mus musculus with 69 samples.

Results

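Resting bone marrow-derived macrophages (BMDMs) of the wild-derived strain SPRET/EiJ (SPRET) were compared with those of the laboratory strain C57BL/6J (C57), with no cytokine added. The members were the 3 SPRET and 3 C57 libraries of the table of 5 strains that are labelled basal, which makes 6 of the 69 samples in the series, and they were chosen by label alone. The marrow came from female mice of 8 to 12 weeks of age and, per the labels, was grown for 7 days in medium holding the growth factor M-CSF. Neither group carried a transgene or an engineered deletion. PolyA RNA was sequenced with the strand kept, and the measure was TPM, a transcript level that is corrected for transcript length and library size. A separate time-course table held 2 more basal libraries of each strain, which served as a check. IL-4 libraries of the same strains (20 ng/ml for 24 h) and 2 basal libraries of C57 × SPRET F1 hybrids are used further on. Basal levels of the other strains of the table of 5 strains are also given. These are BALB/cJ (BALB) and NOD/ShiLtJ (NOD) with 3 libraries each and PWK/PhJ (PWK) with 2. The study calls its replicates biological, but neither it nor the labels say that they came from separate animals, so the p-values measure the spread between these libraries.

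SPRET belongs to Mus spretus, a species that separated from the house mouse long before the laboratory strains arose, so the genomes differ throughout. Macrophages without a stimulus still hold a low level of interferon-stimulated genes, which is kept up by autocrine type I interferon and by STAT and IRF factors and readies the cell against viruses. They also make the C1q complement subunits and bridging proteins that mark dying cells for uptake, and they balance the cholesterol taken up that way by turning their own synthesis down through SREBP-2 and their export up through LXR receptors.

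The libraries held 7.61 to 17.99 M tags in C57 and 17.3 to 18.2 M in SPRET, with the lowest in C57 replicate 2, and replicates correlated across genes with Pearson's r of 0.990 to 0.995 in C57 and 0.996 in SPRET. Across strains r was 0.870 to 0.880. Both strains had the markers of macrophages. Of 11 identity genes none was called higher in SPRET and 2 were called higher in C57, which were Fcgr1, the high-affinity IgG receptor CD64, and Aif1, which encodes IBA1. Of the same 11 in the time course, 3 were called higher in SPRET and 1 higher in C57, and Aif1 gave −0.02. Cd68 was at 2637 TPM in C57 and 2562 in SPRET, and Csf1r, the receptor for M-CSF, at 471 and 590. Summed over its list, each of the T cell, B cell, NK cell, dendritic cell, erythroid and endothelial markers stayed at or under 2.99 TPM in every library. Neutrophil markers summed to 167 to 190 TPM in C57 and 344 to 404 in SPRET, of which S100a8 made up most, while Ly6g was at 0 in all 6 libraries. Osteoclast markers, mostly Ctsk, summed to 442 to 489 TPM in C57 and 816 to 887 in SPRET, stromal markers to at most 5.91 and mast cell, basophil and eosinophil markers to at most 6.69. Single markers went both ways. Of 6 neutrophil markers tested 2 were called higher in SPRET and 2 higher in C57, Mmp8 among the latter. Of 3 osteoclast markers tested, Ctsk was called higher in SPRET and Atp6v0d2 higher in C57. The part of such cells in the differences was not tested. In bulk RNA, fewer cells of a type and less RNA per cell cannot be told apart.

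Of 11907 genes tested with limma on log2(TPM + 1), 1022 were called higher in SPRET and 1134 higher in C57, where a call means more than 2-fold with a Benjamini-Hochberg adjusted p under 0.05. These are 8.58% and 9.52% of the genes, or 18.1% in all, and they are the background for every count given here. The median difference over all genes was 0.02 on the log2 scale. Beyond 4-fold there were 251 genes higher in SPRET and 378 higher in C57, and beyond 16-fold 54 and 80. In 38.0% of genes all SPRET libraries lay above all C57 libraries and in 34.4% all lay below.

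In the time course 1199 genes (9.92% of 12088) were called higher in SPRET and 1074 (8.88%) higher in C57. Median-ratio scaling turned that balance, to 1081 and 1180. Among genes tested in both tables, 645 of those called higher in SPRET had the same call there, which is 64.1% of them and 57.03% of the time-course calls. Of those called higher in C57, 735 had the same call, which is 66.6% and 70.5%. Over the 11463 genes in both tables the log2 differences correlated with r = 0.837 and Spearman's rho = 0.704, as a description, with different libraries behind each axis but the same strain genomes behind the alignment. Only 9 called genes had the opposite call, and they are described below.

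**Figure D1:**
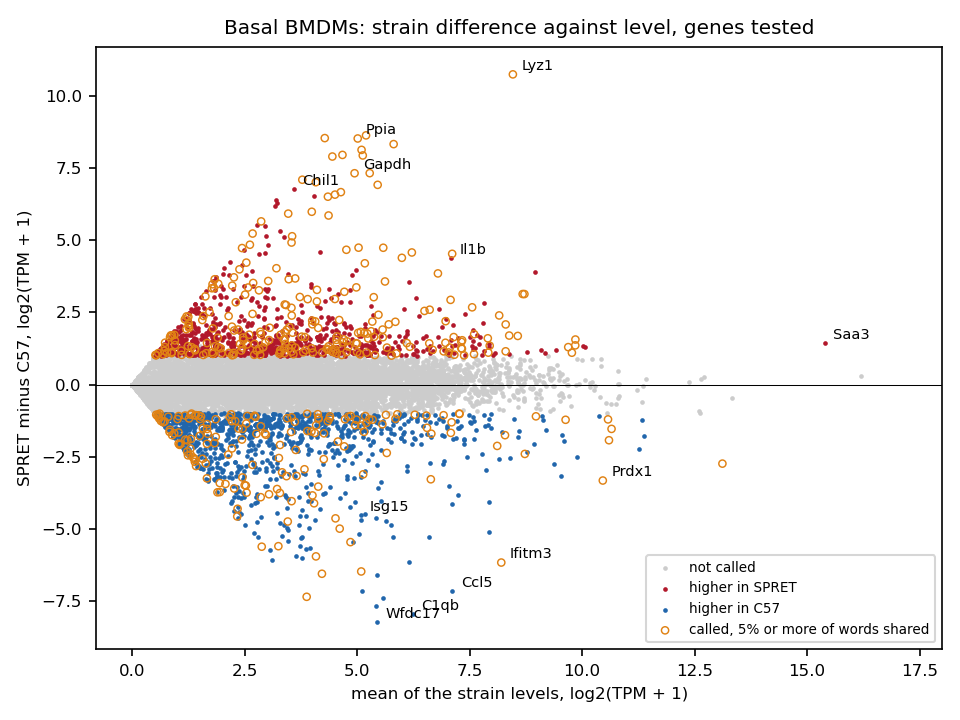
Difference between the strains (SPRET minus C57, log2(TPM + 1), y axis) against the mean of both strains' levels (x axis, log2(TPM + 1)) for the 11907 genes tested. Grey points were not called, and red and blue points were called higher in SPRET or in C57. Orange rings mark called genes with 5% or more of their 50-base words found in transcripts of another locus. They include Lyz1, Ppia, Gapdh, Ifitm3 and Prdx1.

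The highest folds of all stood at genes with close copies elsewhere in the genome. Lyz1, which encodes one of the pair of mouse lysozymes, was at 7.96, 5.83 and 8.66 TPM in the C57 libraries and at 14693, 14484 and 14634 in SPRET (log2 difference 10.77, SE 0.32). Its neighbour and near-copy Lyz2, the lysozyme of macrophages, was at 19730 TPM in C57 and 23917 in SPRET, so SPRET reads were listed at both genes. Gapdh, the glycolytic enzyme commonly used as a reference transcript, was at 1.60, 1.05 and 1.62 TPM in C57 and at 383, 385 and 394 in SPRET. Ppia, the cyclophilin A gene and likewise a common reference, was at 1.33, 0.229 and 0.544 TPM against 618, 599 and 612.

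Such low values were also listed for other strains. Gapdh was at 2.00 TPM in BALB, 1.57 in NOD and 1.71 in PWK. The glutathione transferase Gstp2 was listed at 0 in all C57 libraries and at a mean of 375 TPM in SPRET. Other copies went the opposite way: the ribosomal protein genes Rps19 (322 and 2.58 TPM) and Rpl29 (180 and 0.907 TPM) were higher in C57. Actb, with 12.2% of its words shared, was at 2048 TPM in C57 and 3428 in SPRET (difference 0.74, SE 0.06).

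To measure this, every stretch of 50 bases in a gene's transcripts was looked up in the annotated transcripts of other loci (GRCm38.p6). The share found there was recorded for 11672 of the 11907 genes. Copies outside annotated transcripts were not searched, so a low share does not make a gene unique in the genome. With no shared word, 7.46% of 8038 genes were called higher in SPRET and 9.21% higher in C57. With 50% or more shared, the shares were 36.4% and 16.6% of 187 genes. The time course gave 8.78% and 8.92% for the first group and 39.3% and 15.2% for the last. How reads that match several places were placed is not given in the sources used here, and its part in these calls was not tested. Values of genes with 5% or more shared words are therefore uncertain. Without those 1291 genes and the 235 with no match, 755 of 10381 (7.27%) were called higher in SPRET and 943 (9.08%) higher in C57. The genes described in full from here on have under 5% shared words, here called few, unless said otherwise.

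**Figure D2:**
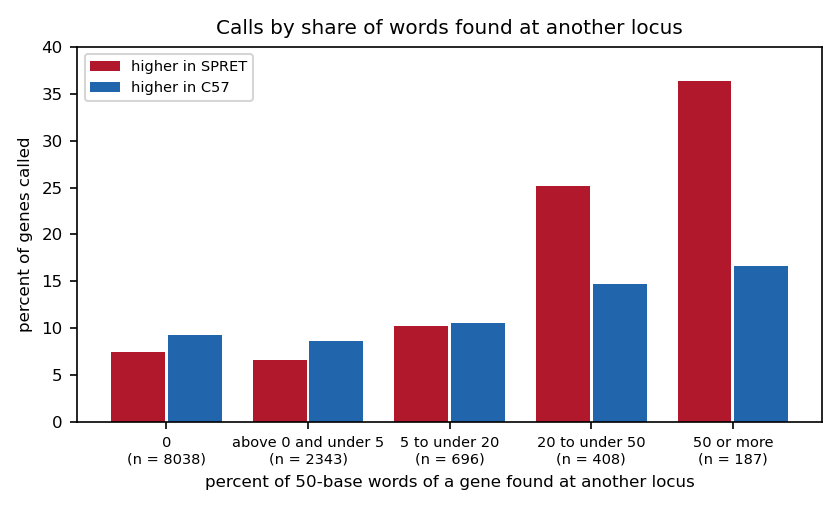
Percentage of genes called higher in SPRET (red) or C57 (blue), by the share of their 50-base words found in annotated transcripts of another locus. The x axis gives that share, with the number of genes tested below each bin. The red bar goes from 7.46% to 36.4% across the bins and the blue bar from 9.21% to 16.6%.

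The ribosomal protein and respiratory chain lists stood where these copies are common. Of 85 ribosomal protein genes, 40 were called higher in SPRET and 7 higher in C57, with a median difference of 0.92 against 0.02 for all genes, but only 4 of the 85 had under 5% shared words, of which 1 was called in each direction. Of 79 oxidative phosphorylation genes 11 were called higher in SPRET and 1 higher in C57, and of the 56 with under 5% shared words 3 and 0. Among the 79, Cox6a2, a cytochrome oxidase subunit best known from muscle, has no shared word, and it was at 14.4 TPM in C57 and 100.7 in SPRET (2.74, SE 0.11).

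Interferon-stimulated genes were mostly lower in SPRET. Of 53 antiviral genes tested, 38 were called higher in C57 and 2 higher in SPRET, beside 9.52% and 8.58% of all genes, and the median log2 difference was −1.83. In the time course it was 33 and 3 of 52, and 32 genes were higher in C57 in both tables. Among the 40 members with few shared words the calls were 27 and 2 and the median −1.62. Rsad2, the antiviral enzyme viperin, was at 81.7, 88.6 and 84.1 TPM in C57 and at 0.972, 1.46 and 1.15 in SPRET, a 71.1-fold difference of means (log2 −5.29, SE 0.10, adjusted p = 6.8e-24). Isg15, the ubiquitin-like modifier, was at 165, 157 and 166 TPM in C57 and at 5.81, 6.79 and 5.59 in SPRET (−4.54, SE 0.10). Irf7, the factor that amplifies interferon production, had 584, 563 and 565 TPM in C57 and 36.3, 43.6 and 36.9 in SPRET (−3.84, SE 0.06). In each of these genes the groups lay far apart.

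The signalling genes of the pathway differed less. Stat2 and Irf9, which belong to the complex that binds interferon-response elements, showed differences of −0.91 and −0.66, under the 2-fold threshold. The receptor chain Ifnar1 was level at 27.1 and 27.7 TPM (0.04, SE 0.05, adjusted p = 0.56), and the other chain, Ifnar2, was one of the 2 list members called higher in SPRET, at 230 and 475 TPM (1.05, SE 0.04). The other was Oas1b, an antiviral gene known for a truncating allele in many laboratory strains, at 4.08 and 13.8 TPM. Ifnb1, the gene of interferon beta itself, was listed at 0 in all libraries but C57 replicate 2, where it had 0.217 TPM. Mx1, whose C57 allele is known as defective, did not pass the threshold (4.64 and 5.77 TPM, difference 0.25, SE 0.15).

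Promoter sequence is shown for 4 of the genes higher in C57, chosen because the letters of the interferon-response element were found there. They do not stand for the whole list: Irf7 and Ifit2, also called higher in C57, had no match in the window searched. Each line gives 100 bases upstream of the RefSeq gene start (GRCm38.p6), 5′ to 3′ on the gene's strand, and capitals mark matches to GAAANNGAAA on that strand or, as TTTCNNTTTC, on the other, where overlapping matches run together. The positions are chr12:26456518-26456617 on the minus strand for Rsad2, chr19:34583328-34583427 on the plus strand for Ifit3, chr4:156200842-156200941 on the minus strand for Isg15 and chr5:120907526-120907625 on the minus strand for Oas1a.
Rsad2: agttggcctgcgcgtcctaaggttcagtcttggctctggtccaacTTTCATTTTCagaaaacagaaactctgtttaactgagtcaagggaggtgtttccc
Ifit3: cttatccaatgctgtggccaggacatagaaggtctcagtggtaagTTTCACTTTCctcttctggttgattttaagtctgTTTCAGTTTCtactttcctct
Isg15: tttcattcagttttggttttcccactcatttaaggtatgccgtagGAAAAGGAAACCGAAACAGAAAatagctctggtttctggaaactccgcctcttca
Oas1a: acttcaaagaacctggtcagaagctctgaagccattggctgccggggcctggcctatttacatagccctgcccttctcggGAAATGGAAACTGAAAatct

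The search covered windows of 300 bases, 250 before and 50 after the start, on both strands. It found the letters in 20 of the 40 list members with a window, in 17 of the 31 among them that were higher in C57, and in 358 of the 9048 windows of all genes tested (3.96%). Of all genes called higher in C57, 77 of 835 windows held them (9.22%), against 31 of 731 (4.24%) for genes higher in SPRET and 250 of 7482 (3.34%) for genes not called. The window is that of the reference strain, the search was chosen after the values were seen, and a match is a description of the letters only. Ifit3 (56.0 and 1.11 TPM) and Oas1a (67.8 and 2.93 TPM) share over 50% of their words with near copies, Ifit3b and the other Oas1 genes, so their levels are uncertain.

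Families that interferon induces leaned the same way. Of 16 GTPases of the Gbp and Irg families, which attack vacuoles of intracellular microbes, 7 were higher in C57 and none in SPRET, for example Gbp2 at 48.2 and 6.22 TPM (−2.77, SE 0.09) and Irgm1 at 32.2 and 5.88. Of 8 Schlafen genes 4 were higher in C57, among them Slfn5 at 63.9 and 9.45 TPM. Only 3 of the 8 have under 5% shared words, of which 2 were higher in C57. The PYHIN family of DNA sensors had 7 of 11 higher in C57, but only 2 of the 11 have under 5% shared words. One of these, Ifi202b, was the family's single call in the other direction, at 0, 0.093 and 0.037 TPM in C57 and at 81.2, 89.1 and 73.9 in SPRET (6.30, SE 0.10).

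Antigen presentation was lower in SPRET in part. Of 30 MHC class I and peptide loading genes 17 were higher in C57 and 4 higher in SPRET, with a median of −1.20. Tap1, the peptide transporter, was at 114 and 15.6 TPM (−2.79, SE 0.05), and Nlrc5, the activator of class I genes, at 4.91 and 0.683. The class I heavy chains themselves are near copies of each other and differ between haplotypes. H2-K1 stood at 2745 and 943 TPM and H2-D1 at 3026 and 790, whereas H2-Q1 was at 0.0367 TPM in C57 and 38.2 in SPRET. Of 10 MHC class II genes 3 were higher in C57, with H2-Eb1 at 93.1 and 8.94 TPM, whereas in the time course 1 of 9 was called in each direction, with a median of 0.29. H2-Ea-ps, the E alpha chain, which C57 mice are known not to express, was at 1.02, 0.858 and 0.425 TPM in C57 and at 55.8, 57.9 and 66.6 in SPRET.

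The C1q genes stood under 5 TPM in every SPRET library. C1qb, one of the 3 chains of the molecule that starts the classical complement pathway, was at 1179, 1161 and 1201 TPM in C57 and at 3.67, 4.83 and 2.92 in SPRET, a 310-fold difference (log2 −7.96, SE 0.14, adjusted p = 1.7e-24). C1qc was at 626, 616 and 615 TPM against 2.05, 3.05 and 2.88 (−7.42, SE 0.09). C1qa was at 400, 410 and 419 TPM against 1.16, 2.40 and 2.07 (−7.18, SE 0.13). All 3 genes lie next to each other on chromosome 4, and the time course gave −7.82, −7.22 and −7.09 in that order. The whole complement list was mixed, with 8 of 20 genes higher in C57 and 4 higher in SPRET. Cfb, of the alternative pathway, was at 500 and 94.2 TPM.

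Clu, which encodes clusterin, a secreted chaperone that also restrains complement, stood at the other end. Its levels were 0.635, 0.556 and 0.917 TPM in C57 and 155, 159 and 155 in SPRET, 222-fold apart (6.53, SE 0.13), and 266 and 281 TPM in the SPRET time-course libraries against 1.12 and 1.86 in C57.

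Among the genes of the uptake of dying cells, Mfge8 and Gas6 had large differences. Mfge8, a bridge between exposed phosphatidylserine and integrins, was at 615, 620 and 599 TPM in C57 and at 1.76, 2.41 and 1.83 in SPRET (−7.68, SE 0.07). Gas6, the bridge to the TAM receptors, was at 83.4, 86.1 and 81.1 TPM against 1.24, 1.16 and 0.969 (−5.32, SE 0.07), and Pros1, the other TAM ligand, at 5.58 and 1.44. Of the TAM receptors, Mertk was at 5.97 and 5.65 TPM (−0.04, SE 0.16) and Axl at 7.74 and 6.26 (−0.27, SE 0.11).

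Scavenger receptors went in both directions. Of 41 genes on that list 11 were higher in C57 and 9 higher in SPRET, with a median of −0.35. Marco, a receptor for bacteria and particles, was at 342, 315 and 376 TPM in C57 and 8.81, 7.13 and 7.45 in SPRET (−5.29, SE 0.12). Cd5l, a secreted protein of tissue macrophages, was at 59.6 and 0.908 TPM, and Siglec1, the sialic acid receptor CD169, at 43.2 and 1.77. Higher in SPRET were Siglece, an inhibitory sialic acid receptor, at 27.002 and 223 TPM (3.00, SE 0.12), the scavenger receptor Colec12 at 4.20 and 34.0, and Havcr2, which encodes TIM-3, at 11.5 and 53.5. Fc receptors followed no single direction either, since Fcgr1 was at 70.2 and 1.42 TPM (−4.88, SE 0.08) and Fcgr4 at 62.0 and 13.3, but Fcgr3, with 10.2% of its words shared, was at 211 and 680.

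**Figure D3:**
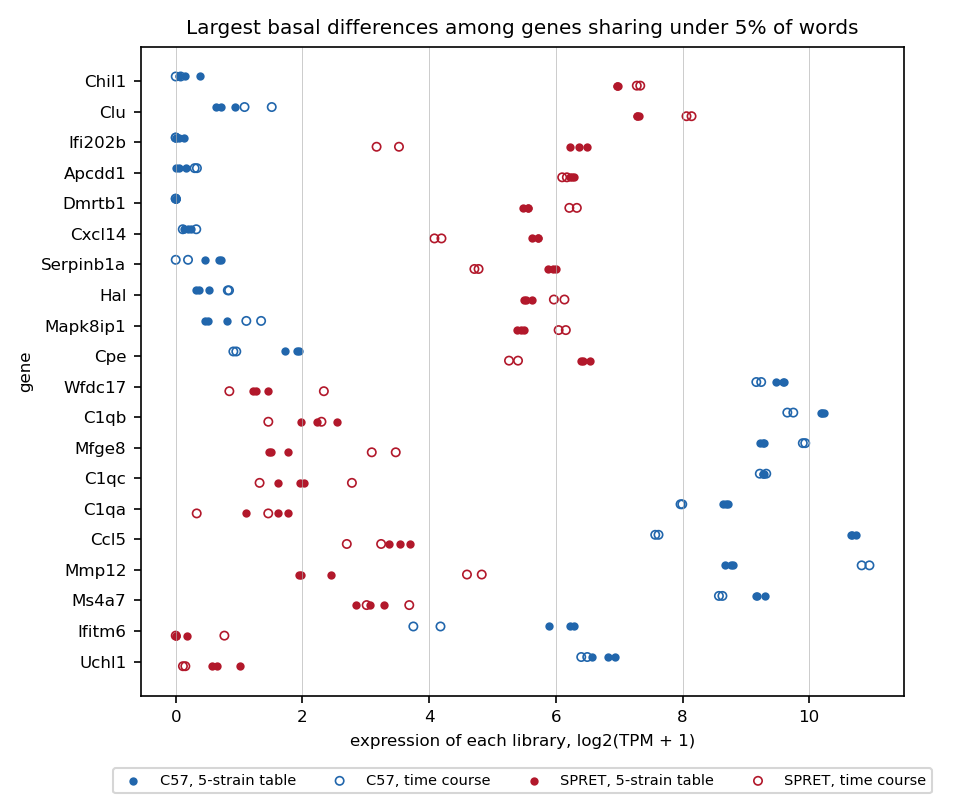
Level of the 10 genes with the largest difference in each direction, among called genes sharing under 5% of their words, in every basal library (x axis, log2(TPM + 1), 1 row per gene). Filled points are the 3 libraries per strain of the 5-strain table, open points the 2 per strain of the time course, blue for C57 and red for SPRET. In every row the colours do not overlap. For the filled points this was set by the choice of genes, which required it, so only the open points could have overlapped.

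Chemokines were mostly lower in SPRET. Of 22 tested, 12 were higher in C57 and 2 higher in SPRET, with a median of −1.40, and 11 of the 12 had the same call in the time course. Ccl5, which attracts T cells and monocytes and is interferon-inducible, was at 1612, 1628 and 1715 TPM in C57 and at 9.35, 11.9 and 10.6 in SPRET (−7.16, SE 0.07). Ccl6, a constitutive macrophage chemokine, had 88.5, 89.8 and 94.8 TPM in C57 and 0.921, 0.905 and 0.827 in SPRET (−5.61, SE 0.07). Ccl9 was at 83.7 and 2.28 TPM, Pf4 at 289 and 8.83, and Ccl8 at 60.3 and 2.04. Against this direction, Cxcl14 was at 0.145, 0.092 and 0.181 TPM in C57 and at 51.9, 51.7 and 48.3 in SPRET (5.50, SE 0.07), and the neutrophil chemokine Cxcl1 at 1.95 and 10.6.

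Il1b, the gene of the inflammatory cytokine IL-1β, was higher in SPRET at rest. It was at 26.9, 24.9 and 34.6 TPM in C57 and at 622, 595 and 629 in SPRET, 21.4-fold apart (4.38, SE 0.10, adjusted p = 1.7e-22), and at 2.47 and 1.63 against 158 and 173 TPM in the time course. Genes that hold IL-1 family cytokines in check went the other way, Il1rn, the receptor antagonist, at 119 and 31.9 TPM (−1.87, SE 0.07) and Il18bp, the binding protein of IL-18, at 59.9 and 2.65. Il1rn was not called in the time course (−0.36). Over the 21 inflammasome and IL-1 family genes, 3 were higher in SPRET and 5 higher in C57. Of 22 Toll-like receptor genes 5 were higher in C57, led by Tlr13, a sensor of bacterial ribosomal RNA, at 48.8 and 5.18 TPM. Of the 22 in the time course, 6 were called higher in SPRET and 2 higher in C57, with a median of 0.44. Tlr2 was higher in SPRET (46.7 and 132 TPM, 1.48, SE 0.07) and Tlr4, the LPS receptor, was level (7.68 and 7.57 TPM, −0.02, SE 0.10).

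The acute-phase gene Saa3 was the most abundant transcript among genes called higher in SPRET. It was at 25838, 24917 and 27466 TPM in C57 and at 72741, 66829 and 72702 in SPRET (1.44, SE 0.05). Quantile normalization gives genes of equal rank equal values, and under it the Saa3 difference was 1.8e-15, so that setting cannot test Saa3. Saa1 was at 1.61, 0.555 and 0.989 TPM in C57 and at 605, 505 and 596 in SPRET (8.14, SE 0.25), with 14.8% of its words shared, and Saa2 at 0.170 and 160. In the time course these differences were absent: Saa3 was at 6607 and 6215 TPM in C57 and 6891 and 6380 in SPRET (0.05), and Saa1 gave 0.75 (adjusted p = 0.11). Saa3 and Saa2 were picked out after their values were seen.

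Several surface genes of monocytes and macrophages were lower in SPRET. Of 7 Ms4a genes tested, which encode 4-pass membrane proteins, 5 were higher in C57 and none in SPRET, with a median of −2.68. Ms4a7 was at 576, 570 and 633 TPM in C57 and at 6.16, 8.79 and 7.34 in SPRET (−6.15, SE 0.07). Of 9 Ly6 and related genes 5 were higher in C57 and 2 in SPRET. The stem cell antigen gene Ly6a was at 187 and 0.143 TPM, with 19% of its words shared, and Cd24a at 13.6 and 0.136. Among C-type lectins 6 of 22 went each way, and of the 16 with under 5% shared words 2 were higher in SPRET and 5 higher in C57, with Clec4d, a receptor for mycobacterial lipid, at 1001 and 58.4 TPM (−4.07, SE 0.05) and Clec5a at 12.5 and 52.8.

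Matrix enzymes gave single very large differences. Wfdc17, a small secreted protease inhibitor-like protein, was at 710, 778 and 764 TPM in C57 and at 1.34, 1.76 and 1.41 in SPRET, which at 499-fold was the largest difference in this direction among genes with few shared words (−8.23, SE 0.05, adjusted p = 9.2e-34). Mmp12, the macrophage elastase, was at 444, 406 and 435 TPM against 2.84, 4.46 and 2.92 (−6.62, SE 0.09), and Mmp8, a collagenase known from neutrophils, at 59.9 and 0.131. Spp1, osteopontin, was at 2233 and 246 TPM (−3.18, SE 0.05). Of the 28 genes of the matrix list 10 were higher in C57 and 5 higher in SPRET. The 5 included Fn1, fibronectin, at 0.283, 0.666 and 0.477 TPM in C57 and 32.4, 31.6 and 33.8 in SPRET (4.52, SE 0.09).

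Of 20 iron and heme handling genes tested, 8 were called higher in C57 and none in SPRET, with a median of −0.78. The time course had 10 of 19 called higher in C57 and 1 higher in SPRET, with a median of −1.20. Lcn2, which withholds iron from bacteria, was at 86.6, 80.3 and 84.2 TPM in C57 and at 1.39, 2.26 and 1.55 in SPRET (−4.97, SE 0.10). Trf, the iron carrier transferrin, was at 48.7 and 3.23 TPM (−3.56, SE 0.08), its receptor Tfrc at 41.5 and 8.62, and the iron exporter Slc40a1 at 15.7 and 1.52. In the time course Tfrc was at 388 and 358 TPM in C57 and 11.98 and 10.9 in SPRET (−4.91).

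Antioxidant genes were lower in SPRET more often than higher. Of 46 tested, 16 were higher in C57 and 7 higher in SPRET, with a median of −0.38. Gpx3, a secreted glutathione peroxidase, was at 49.8 and 0.832 TPM (−4.79, SE 0.07), and Gclm, a subunit of the enzyme that makes glutathione's precursor, at 100.2 and 11.8 (−3.00, SE 0.07). Prdx1, a peroxiredoxin of high abundance with 8.99% of its words shared, was at 4481, 4142 and 4778 TPM in C57 and 441, 419 and 467 in SPRET. Nnt, the mitochondrial enzyme that regenerates NADPH and is deleted in part in C57BL/6J, was at 3.13, 2.85 and 3.08 TPM in C57 and at 13.8, 15.6 and 14.3 in SPRET (1.95, SE 0.10).

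Lysosomal genes showed smaller differences at high levels. Of 48 tested 10 were higher in C57 and 2 higher in SPRET, with a median of −0.30. Ctss, the cathepsin that trims the class II invariant chain, was at 5320 and 1135 TPM (−2.23, SE 0.03), the cholesterol carrier Npc2 at 1362 and 407, and the proton pump subunit Atp6v0d2 at 71.6 and 5.13. The exceptions were Ctsf at 8.21 and 88.9 TPM (3.29, SE 0.06) and Ctsk at 394 and 844.

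Most cholesterol synthesis genes were higher in SPRET. Of 26 genes for synthesis and uptake 16 were higher in SPRET and none in C57, with a median of 1.11, and 15 of the 16 had the same call in the time course, where the counts were 20 and 0 and the median 1.60. Of the 21 with few shared words 12 were higher in SPRET, with a median of 1.10. Cyp51, the lanosterol demethylase, was at 6.95, 6.19 and 6.92 TPM in C57 and at 33.6, 32.7 and 32.4 in SPRET (2.14, SE 0.10, adjusted p = 4.7e-16). The SREBP-regulated genes Sqle (17.9 and 59.7 TPM) and Insig1 (13.0 and 33.6 TPM) were called as well. Srebf2, the gene of SREBP-2 itself, had a difference of 0.79 (SE 0.08), under the 2-fold threshold.

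Lipid handling beyond synthesis had no common direction. Of 31 LXR target and lipid transport genes 7 were higher in SPRET and 9 higher in C57. Nr1h3, the gene of LXRα, was at 36.4, 35.8 and 34.9 TPM in C57 and at 188, 193 and 183 in SPRET (2.36, SE 0.07). Fabp4, a fatty acid carrier, was at 556, 609 and 633 TPM against 14.8, 12.2 and 16.2 (−5.29, SE 0.08), the lipase Lpl at 578 and 31.4, and the RNA editing enzyme Apobec1 at 171 and 6.67. Alox5, the enzyme that starts leukotriene synthesis, was at 1.56 and 17.5 TPM, and Lta4h, which makes leukotriene B4, at 33.0 and 108 (1.69, SE 0.06).

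**Figure D4:**
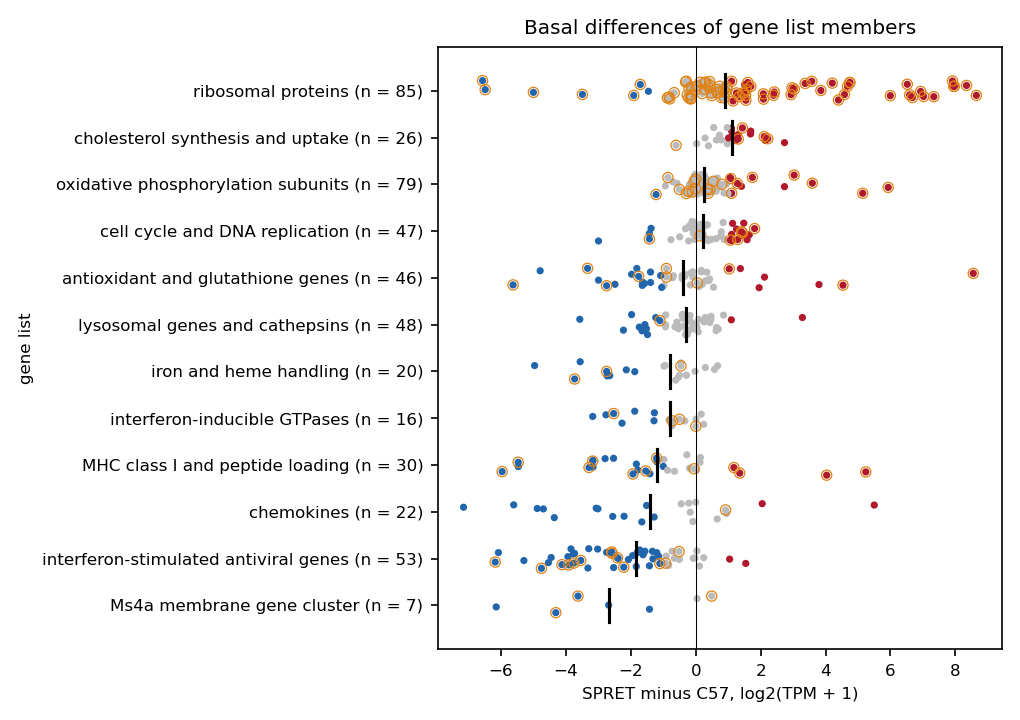
Difference between the strains (x axis, SPRET minus C57, log2(TPM + 1)) of every tested member of 12 gene lists, 1 point per gene, with the number tested beside each name. Red and blue points were called, grey points were not, orange rings mark 5% or more shared words and the black bar is the list's median, which lies at 1.11 for cholesterol synthesis and at −1.83 for the interferon-stimulated genes.

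Of 47 cell cycle genes 13 were higher in SPRET and 4 higher in C57, with a median of 0.22. Among the 40 with few shared words the calls were 8 and 3. The time course had 11 and 5 of 46, and 8 genes were higher in SPRET in both tables. Birc5, survivin, was at 6.73, 7.77 and 7.80 TPM in C57 and at 26.8, 25.9 and 23.6 in SPRET (1.65, SE 0.12), and Cdkn1a, the cell cycle inhibitor p21, at 190, 206 and 185 TPM against 22.95, 22.8 and 24.3 (−3.00, SE 0.04). In the time course Cdkn1a gave −0.85 and was not called. Igf1, a growth factor of wound macrophages, was at 69.9 and 4.27 TPM, and Vegfa at 51.1 and 3.70. Among receptors, Il17ra was at 9.67 and 46.3 TPM (2.15, SE 0.07) and Ifngr1 at 67.5 and 153, both higher in SPRET.

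Other genes at the SPRET end of the range belong to no list. Chil1, a chitinase-like secreted protein, was at 0.105, 0.298 and 0.039 TPM in C57 and at 124, 125 and 124 in SPRET (6.78, SE 0.14), the largest difference in this direction among genes with few shared words. Apcdd1, a Wnt inhibitor, was at 0.0497 and 75.6 TPM (6.19, SE 0.08), Serpinb1a, an inhibitor of neutrophil proteases, at 0.546 and 60.7, and Hal, histidine ammonia-lyase, at 0.326 and 46.0. Mapk8ip1, a JNK scaffold protein, was at 0.516 and 42.5 TPM and Cpe, carboxypeptidase E, at 2.65 and 86.8.

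Some genes were at or near 0 in one strain and well expressed in the other. With at least 5 TPM in every SPRET library and at most 0.1 TPM in every C57 library there were 12 genes outside clone, small RNA and pseudogene symbols, 8 of them with few shared words and 4 listed at 0 throughout C57. Dmrtb1, a transcription factor gene best known from the testis, was listed at 0 in all 3 C57 libraries and at 46.4, 46.2 and 43.8 TPM in SPRET, and again at 0 and 0 against 79.5 and 73.2 in the time course. The reverse rule gave 14 such genes, 8 with few shared words. Cav1, caveolin-1, was at 27.9, 30.0 and 31.4 TPM in C57 and at 0.082, 0.081 and 0 in SPRET. Htr2b, a serotonin receptor, was at 21.1 and 0.044 TPM, and Rsph9, of the ciliary radial spoke, at 24.7 and 0.0247.

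Called genes also lay beside each other. In order along the chromosomes there were 19 runs of at least 4 neighbouring tested genes with the same call, 14 of them higher in C57, and together they held 105 genes. On chromosome 11, Ccl5, Ccl9, Ccl6, Ccl3, Ccl4, Wfdc17 and Wfdc18 formed a run higher in C57. Other such runs were Ifitm5 to Sigirr on chromosome 7, Ifit2, Ifit3, Ifit3b and Ifit1 with Lipa on chromosome 19, and Mmp13, Mmp12, Mmp8 and Mmp27 on chromosome 9. A run higher in SPRET on chromosome 10 held Lta4h and Hal. The longest run, 22 genes of the protocadherin gamma cluster, consists of transcripts that share their last exons and so counts as 1 signal. Its differences of 1.20 to 1.28 were −0.02 to 0.11 in the time course. Calls of Wfdc18, Pkp3, 4833417C18Rik and Amdhd1 within these runs were lost when 1 library was left out. Those libraries were C57 replicate 3 for Wfdc18 (−0.89 without it), C57 replicate 2 for Pkp3 (−0.99) and 4833417C18Rik (−0.82), and SPRET replicates 1 and 3 for Amdhd1 (0.93 and 0.94).

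A few genes changed sides between the tables. Apoe, the apolipoprotein of lipid export, was at 598, 683 and 670 TPM in C57 and at 1637, 1639 and 1704 in SPRET (1.35, SE 0.11), but at 960 and 981 against 254 and 196 in the time course (−2.12). Thbs1, thrombospondin-1, was at 4.14 and 0.614 TPM (−1.67, SE 0.10) in the table of 5 strains and at 3.11 and 3.399 against 20.3 and 22.8 in the time course (2.41). Lsp1, a leukocyte cytoskeletal protein, gave −2.27 and 2.05, and Ccr2, the receptor that brings monocytes out of the marrow, −1.51 and 1.83. Within each table the libraries of each strain lay close together for all 4. The labels give no culture date or batch for either table, so the table and any such batch cannot be told apart.

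After 24 h of IL-4, in other libraries, 1408 genes (11.8%) were higher in SPRET and 1049 (8.81%) higher in C57. The median over all genes was 0.18 there and moved to 0.00 with median-ratio scaling, which turned the share of calls higher in SPRET from 57.3% to 42.9%. At rest the same scaling gave 45.3% in place of 47.4%. Of the genes higher in SPRET at rest 811 of 1022 (79.4%) had the same call after IL-4, and of those higher in C57 806 of 1134 (71.1%), while 3 and 5 had the opposite call. The strain difference itself changed by more than 2-fold in 411 genes (3.45%).

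Arg1, arginase 1 and a hallmark of IL-4 treated macrophages, already differed at rest, with 124, 117 and 137 TPM in C57 and 6.38, 7.33 and 5.87 in SPRET (−4.08, SE 0.16). After IL-4 it was at 3411 and 853 TPM (−2.002). Mmp12 was at 1341 and 117 TPM after IL-4, so its difference went from −6.62 to −3.51. The C1q difference was larger after IL-4, with C1qb at 2091 and 2.25 TPM (−9.33). Slc7a2, an arginine transporter, was higher in SPRET at both times (2.10 and 1.53). Across the 40 IL-4 target genes, 10 were higher in SPRET and 12 higher in C57 at rest, with a median of −0.04.

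The F1 hybrid carries both genomes in the same cell, and its reads were assigned to alleles by the study. Allele values were scaled on their own and by the genomic span of a gene, so only the alleles of 1 gene are set against each other, as log2(value + 1). Of the genes called higher in C57 with few shared words, 761 had an allele value of at least 1. In both F1 libraries 174 of them (22.9%) showed the C57 allele more than 2-fold higher, 484 (63.6%) had alleles within 2-fold and 8 went the opposite way. Of 653 genes higher in SPRET the numbers were 138 (21.1%), 458 (70.1%) and 2. Over these 1414 genes the parental and allelic differences correlated with r = 0.702, as a description. The genes were picked for parental differences beyond 2-fold, which leaves out the middle of that axis and can raise r. The median allelic difference in the parental direction was 0.54 for genes higher in C57, beside a parental median of 1.56. For genes higher in SPRET these medians were 0.51 and 1.35.

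By list, the alleles can be set beside those shares, though the lists also hold genes with more shared words. For genes higher in C57 these were 63.6% within 2-fold and 22.9% with the C57 allele higher. For genes higher in SPRET they were 70.1% within 2-fold and 21.1% with the SPRET allele higher. Of 32 interferon-stimulated genes higher in C57 with an F1 value, 22 had alleles within 2-fold in both libraries and 6 had the C57 allele higher, near the shares over all genes higher in C57. Rsad2 alleles were at 6.99 and 7.20 in replicate 1 and at 9.30 and 7.30 in replicate 2, C57 first. Of 16 cholesterol genes higher in SPRET 14 had alleles within 2-fold, with Cyp51 at 67.3 and 78.8, then 72.1 and 82.7. The same held for all 13 cell cycle genes higher in SPRET.

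Elsewhere the alleles of the F1 were unequal in the parental direction. C1qb was at 226 for the C57 allele and 16.4 for the SPRET allele in replicate 1, and at 231 and 19.1 in replicate 2. Wfdc17 was at 232 and 0.782, then 263 and 2.06. Clu was at 19.3 and 80.3, then 19.2 and 88.3, with the SPRET allele higher. Mfge8 (159 and 38.0 in replicate 1) and Gas6 (84.2 and 19.6) also had the C57 allele higher.

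Single genes of very large parental difference had even alleles. Mmp12 was at 871 and 830 in replicate 1 and at 585 and 578 in replicate 2. Dmrtb1, listed at 0 in C57 macrophages, was at 21.6 for the C57 allele and 18.5 for the SPRET allele, then 12.4 and 9.05. Ccl5 had almost no allele-assigned signal in the F1 (0.685 and 0, then 0.605 and 0.640), so its alleles could not be compared.

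**Figure D5:**
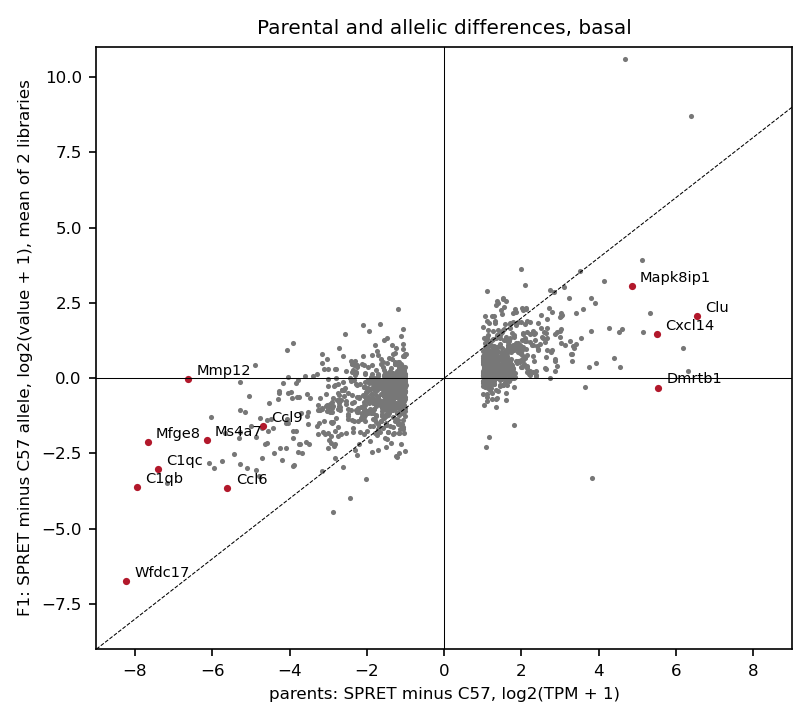
Mean allelic difference in the 2 F1 libraries (y axis, SPRET minus C57 allele, log2(value + 1)) against the parental difference (x axis, SPRET minus C57, log2(TPM + 1)) for the 1414 called genes with few shared words and an F1 value of at least 1. The dashed line marks equal differences, with Mmp12 and Dmrtb1 near 0 on the y axis and Wfdc17 near the line.

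Set beside the other strains, whose own comparisons use the same C57 libraries, some SPRET levels stood apart and others did not. Rsad2 was at 51.4 TPM in BALB, 418 in NOD and 30.4 in PWK, all above the 1.19 of SPRET, and Irf7 at 436, 1009 and 612 against 38.9. Wfdc17 was at 686, 1150 and 699 TPM. Clu was at 1.48, 1.63 and 0.553 TPM, far under the 156 of SPRET. By contrast C1qb was at 88.2, 83.7 and 11.5 TPM, between the levels of C57 and SPRET. Chil1 was at 0.0513, 45.6 and 309 TPM, so PWK exceeded SPRET, and Ifi202b at 33.5, 99.4 and 116, which leaves C57 as the strain near 0. H2-Ea-ps was at 223 TPM in BALB but at 0.261 in NOD and 0.0525 in PWK.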

How the data were processed

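The authors aligned reads with STAR 2.5.3 to strain genomes built with MMARGE 1.0 from mm10, shifted them to mm10 and, per the submitters' processing notes, counted exons with HOMER 4.11.1. The deposited values used here are TPM. Columns with the authors' own comparisons (DESeq2) were not used. Members and gene lists were chosen with earlier results of these data known.

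Values were tested as log2(TPM + 1) with limma 3.58.1 (R 4.3.3), 1 mean per group over the 29 libraries of the table (16 in the time course) and a trended prior, in genes at 1 TPM or more in at least 2 libraries. P-values were Benjamini-Hochberg adjusted, two-sided, and called beyond 2-fold with adjusted p under 0.05. On simulated data for 11907 genes, 99% of 100 genes changed by 1.5 on the log2 scale were recovered, with 1 false call. The changed genes were drawn from middle levels, with independent normal noise and most genes left unchanged. The recovery does not cover genes near 0 or at very high levels. Named were the 10 largest genes per direction with under 5% shared words, up to 3 members per list and direction, up to 5 near-0 genes per direction, members of the longest runs, opposite calls and fixed checks. The 10 largest were taken only from called genes whose basal SPRET and C57 libraries did not overlap in the table of 5 strains. Some other list members are named for their roles, chosen after their values were seen. Alternatives changed the pseudocount, filter, scaling, samples and thresholds. Promoter windows are from RefSeq. TPM precision below 1 is limited by depth, which was lowest in C57 replicate 2. Deviations from the group means of same-numbered libraries correlated at −0.01, 0.07 and 0.04 (time course −0.08), so numbers do not pair them. Results for some genes are not reported here.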

Additional observations from a re-analysis of the deposited data

Results flagged for a closer look

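Among the 40 genes with the largest differences or near 0 in one strain, 13 had a strain difference that changed by more than 2-fold after 24 h of IL-4 in the test of that change (limma, adjusted p under 0.05). Over all genes tested the share was 411 of 11907 (3.45%). The 40 were chosen by their values at rest, which are also subtracted here. That choice favours a difference that shrinks, so the 13 are a description only. The values are the log2 strain difference (SPRET minus C57) after IL-4 minus that at rest. Of genes lower in SPRET at rest, the difference was smaller after IL-4 for Mmp12 (3.11), Ifitm6 (2.93), Cav1 (2.41), Ly6a (1.72), Ly6c2 (1.51) and Ms4a7 (1.02). In Cav1, Ifitm6 and Ly6c2 the level after IL-4 was lower in C57 and near 0 in SPRET, so the gap closed on the C57 side. For example, Ifitm6 was at 69.9 TPM in C57 at rest and at 8.59 after IL-4. The C1q genes moved further apart, C1qa by −1.499, C1qb by −1.37 and C1qc by −1.24. Of genes higher in SPRET at rest, Clu (−1.58), Cxcl14 (−1.38) and Apcdd1 (−1.28) had a smaller difference after IL-4 and Ifi202b a larger one (1.20).

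The 9 genes called in opposite directions in the 2 basal tables had these time-course differences (SPRET minus C57, log2): Thbs1 2.41, Lsp1 2.05, Ccr2 1.83, Il4i1 1.72, Selenbp1 1.12, Mrpl1 1.11 and Pmaip1 1.05, all lower in SPRET in the table of 5 strains, and Apoe −2.12 and Tcp11l1 −1.04, both higher there. The difference between the tables was not tested, since they were normalized separately.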

How the results depend on the processing

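The basal counts of 1022 genes higher in SPRET and 1134 higher in C57 stayed within 1.5 times under the other filters, scalings, priors and sample sets. They moved with the pseudocount of 5 TPM (489 and 584) and with the thresholds of 1.5-fold (2181 and 2009) and 4-fold (251 and 378). The pseudocount of 5 TPM gave 673 and 575 in the time course and 667 and 565 after IL-4. Leaving out each replicate gave 1019 to 1048 and 1103 to 1182 at rest, 1201 to 1239 and 1050 to 1121 in the time course, and 1340 to 1476 and 1040 to 1106 after IL-4. No single difference or count reversed, but median-ratio scaling turned which strain had more calls, to 1081 in SPRET and 1180 in C57 in the time course and to 967 and 1289 after IL-4, and the cause was not tested. Of 243 named called genes, 53 lost the call at a pseudocount of 5 TPM and 5 under quantile normalization. The 5 include Saa3, which that setting cannot test. Median-ratio scaling lost 2 calls and leaving out single libraries 0 to 4. With the replicate number as a block the counts were 1023 and 1135 at rest, 1200 and 1074 in the time course and 1409 and 1050 after IL-4, though numbers do not pair the samples. Without genes that share 5% or more of their words, an alternative chosen after seeing the data, 755 and 943 were called.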

Other observations

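Lists not described above held the following basal calls, given as genes higher in SPRET and higher in C57 of those tested, beside 8.58% and 9.52% of all genes. Glycolysis and HIF target genes had 7 and 6 of 36. Hk3, a hexokinase of myeloid cells, was at 173 and 5.63 TPM in C57 and SPRET (−4.72, SE 0.06), whereas Pfkl, the liver-type phosphofructokinase, was at 85.6 and 216. Integrin and adhesion genes had 3 and 8 of 24, with Itgal, the LFA-1 alpha chain, at 17.7 and 3.10 TPM. Growth factor and cytokine genes had 4 and 9 of 35, and their receptors 11 and 9 of 42. NF-kB genes had 3 and 7 of 29, with Acod1, which makes itaconate, at 642 and 81.9 TPM (−2.95, SE 0.06) and Socs3 at 55.5 and 274. Immediate-early genes had 5 and 2 of 22, with Atf3 at 181 and 24.8 TPM. Their time-course counts were 2 and 4 of 23, and 1 gene was higher in SPRET in both. Eicosanoid genes had 5 and 5 of 21, chemokine receptors 1 and 5 of 18, Fc receptors 1 and 3 of 9 and heat-shock and unfolded-protein genes 1 and 3 of 25. In the time course, beside 9.92% and 8.88% of all genes, glycolysis and HIF target genes had 7 and 2 of 35. Integrin and adhesion genes had 3 and 7 of 24 there and NF-kB genes 6 and 5 of 29. Growth factor and cytokine genes had 5 and 7 of 30 and their receptors 10 and 9 of 41. Eicosanoid genes had 4 and 4 of 21 and chemokine receptors 4 and 5 of 19. Fc receptors had 1 and 3 of 9 and heat-shock and unfolded-protein genes 1 and 10 of 25.

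Lineage transcription factors of macrophages had 5 and 3 of 31, and 5 and 6 of 31 in the time course. Cebpd was at 6.15 and 52.1 TPM (2.91, SE 0.17), Spi1, the gene of PU.1, at 203 and 342 without reaching 2-fold, and Id3 at 8.44 and 0.450. Of 4 genes for which C57BL/6J is known to carry a defective allele, 3 were higher in SPRET (Nnt, H2-Ea-ps and Ifi202b). Of the RNA check genes, Tbp (5.5997 and 6.06 TPM) and Hprt (90.7 and 93.8 TPM) were not called, and Gapdh and Ppia were. Among chromosomes, the X had 12.3% of its tested genes called in either direction.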
